A study of Homo sapiens with 12 samples.

Results

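The comparison described here is erythroid differentiation of MBD2 knockout HUDEP-2 cells. HUDEP-2 is an immortalized human erythroid progenitor line made from umbilical cord blood, which expands under doxycycline and matures when the medium is changed. RNA was sequenced from 6 knockout libraries, 3 collected before and 3 after differentiation, out of 12 libraries in the series. The other 6 libraries came from control HUDEP-2 cells with a scrambled guide, 3 at each stage, and are used only to show where the knockout response differed. The rule set no condition on the genes: of 60483 genes in the count table, 17175 had enough counts to be tested. Knockout cells carried the genotype MBD2-/-, and the labels call the stage before differentiation early basophilic erythroblast and the stage after it late basophilic erythroblast. Before differentiation, cells of both genotypes grew in serum-free medium with stem cell factor, erythropoietin, dexamethasone, doxycycline and L-glutamine. Differentiation took place in IMDM with human AB serum, erythropoietin, doxycycline, insulin, heparin, holo-transferrin and L-glutamine, and lasted 5 days by one protocol of the labels and 3 days by another. Stage and medium therefore cannot be told apart. The labels do not say whether the knockout line was 1 clone, or whether replicates were separate cultures, so the p-values rest on a spread among replicate libraries that may be technical.

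MBD2 is a reader of methylated CpG dinucleotides that brings the NuRD corepressor complex to methylated DNA, and in erythroid cells it is known for its part in silencing the fetal gamma-globin genes. As an erythroblast matures it stops responding to stem cell factor, takes up iron through the transferrin receptor, builds heme and hemoglobin, assembles the spectrin-based membrane skeleton, condenses its chromatin and begins to clear its organelles. GATA1, TAL1 and KLF1 drive that program, while GATA2, KIT and MYB belong to the progenitor state that precedes it.

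The knockout libraries held 10651451 to 13671293 counts before and 7667997 to 10192009 after differentiation. MBD2 itself stood at 22.7, 19.8 and 24.5 CPM (counts scaled to a common library total, with TMM scaling) before and 16.8, 16.1 and 14.6 after, against 78.7, 77.7 and 75.3 and 61.4, 59.1 and 58.2 in the control libraries. All 6 knockout libraries lay below all 6 control libraries, with a remaining signal of MBD2 reads. Whether these reads came from edited copies of the gene or from unedited cells was not tested. The position of the edit is not given in the sources used here. Ribosomal RNA took 0.842 to 1.29% of counts before and 1.68 to 2.74% after, and all genes of the mitochondrial genome took 1.32 to 1.55% before and 1.82 to 2.80% after. Mitochondrial ribosomal RNA is counted in both shares. The 13 mitochondrial messenger RNAs alone summed to 7140, 8800 and 7520 CPM before and 6980, 7620 and 7970 CPM after. The libraries after differentiation had TMM factors of 0.883 to 0.931 and those before had 1.02 to 1.04. The part of these shares in the results was not tested. The 8 erythroid markers SLC4A1, ALAS2, KLF1, GATA1, TFRC, EPOR, HEMGN and AHSP were all detected in every knockout library at both stages; the lowest single value was 24.1 CPM, for EPOR before differentiation. These are bulk samples, in which fewer cells of a type and less RNA per cell cannot be told apart.

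Differentiation changed the level of most genes tested in knockout cells, in both directions to a similar extent. By edgeR's quasi-likelihood test at a Benjamini-Hochberg adjusted p under 0.05, 4807 genes (28.0% of those tested) rose and 4756 (27.7%) fell. At least 2-fold changes were 1787 rises (10.4%) and 1548 falls (9.01%). The median gene changed by 0.03 on the log2 scale, and the middle 50% of genes lay between -0.42 and 0.49. The balance of the directions rests on TMM scaling. With library size alone the median gene stood at -0.16, and 3427 rises faced 6337 falls, so that 35.1% of calls were rises in place of 50.3%. Directions below hold relative to the median gene, and a list whose sign differs between these scalings is named as such. Counts of list members that rose or fell are to be read beside the shares of all genes, 28.0% and 27.7%.

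H1F0 had the largest rise among well-measured protein-coding genes. It encodes the replacement linker histone H1.0 of differentiated cells and is at chromosome 22, 37805093 to 37807436 of hg38. It stood at 8.08, 7.81 and 7.24 CPM before and 217, 260.1 and 244 CPM after differentiation, a 31-fold rise with a log2 fold change of 4.96 ± 0.11 (SE; adjusted p = 6.8e-15). No library after differentiation came near any library before it. PHGDH, the first enzyme of serine synthesis, went from 1.3, 0.898 and 1.27 CPM to 22.2, 28.4 and 31.6 CPM, a 23.3-fold rise. KCNN4, the Gardos potassium channel of the red cell, went from 4.84, 6.29 and 5.07 CPM to 87.1, 91.6 and 106 CPM, or 17.6-fold. The zinc exporter SLC30A1 rose 16.9-fold, from 17.1, 12.1 and 10.7 CPM to 243, 238 and 202 CPM. Its 3 libraries before differentiation were spread more widely than those of KCNN4, yet all lay far below the later ones. GDF15, a secreted stress cytokine, rose 15.7-fold, and ATF3, a stress-induced transcription factor, rose 14.8-fold. TNS1, which encodes the adhesion protein tensin 1, rose 15.6-fold. Complement component C5 rose 20.7-fold, APOL6 18.7-fold and PAQR9 16.4-fold. These 10 were the protein-coding genes with the largest rises among those with a mean of at least 2 on the log2 CPM scale and no overlap between the stages.

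By the same rule the largest fall was that of RHEX. RHEX, an adaptor of erythropoietin receptor signaling at chromosome 1, 206037231 to 206102459 of hg38, stood at 63.7, 63.6 and 59.6 CPM before and 1.05, 1.29 and 1.12 CPM after differentiation. That fall was 53.1-fold, with a log2 fold change of -5.73 ± 0.13 (SE; adjusted p = 6.8e-15). The giant scaffold protein gene AHNAK started much higher, at 1014, 1010.4 and 960.3 CPM, and ended at 66.5, 69.4 and 71.6 CPM, a 14.4-fold fall. DOCK2, an activator of the small GTPase Rac in blood cells, went from 144, 143 and 149 CPM to 8.44, 10.5 and 11.7 CPM, or 14.3-fold lower. Replicates of AHNAK and DOCK2 were close to each other at both stages. ZNF521, a zinc finger protein of immature blood cells, fell 14.5-fold, from 32.9, 32.7 and 38.4 CPM to 1.17, 2.26 and 3.94 CPM, with its 3 later libraries spread widely at low counts. The orphan receptor gene GPR85 fell 21.7-fold, ACPP, which encodes an acid phosphatase, 20.7-fold, and the lysophospholipid acyltransferase gene LPCAT2 16.9-fold. RAB29, a small GTPase, fell 14.1-fold, the transcription factor gene KLF15 13.4-fold, and the glycosyltransferase gene GALNT14 13-fold.

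**Figure D1:**
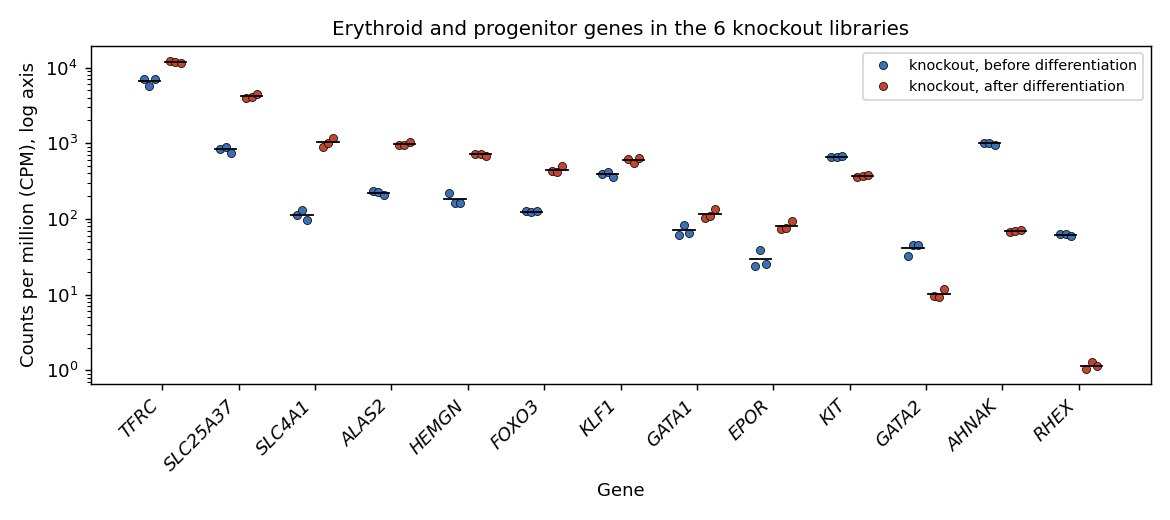
CPM on a log axis for 13 genes in the 3 knockout libraries before (blue) and the 3 after (red) differentiation; horizontal lines are group means. The groups do not overlap for any gene shown: TFRC to EPOR are higher after differentiation, and KIT, GATA2, AHNAK and RHEX are lower.

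Genes of heme synthesis mostly rose. Of 20 tested, 17 passed the test as higher and the other 3 did not pass, with a median log2 fold change of 0.71 against 0.03 for all genes. ALAS2, the erythroid rate-limiting enzyme of the pathway, stood at 237, 226 and 204 CPM before and 962, 943 and 1027 CPM after differentiation (log2 fold change 2.13 ± 0.07, SE; adjusted p = 3.9e-13). FECH, ferrochelatase, inserts iron into the porphyrin ring. It went from 201, 210.2 and 192 CPM to 483, 492 and 510.2 CPM, and both groups were narrow. UROS, the uroporphyrinogen III synthase gene, rose 2.23-fold and TMEM14C, which carries a heme precursor across the inner mitochondrial membrane, rose 2.24-fold. ALAS1, the housekeeping isoenzyme of ALAS2, had a log2 fold change of 0.16 ± 0.10 and did not pass the test (adjusted p = 0.20).

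Of 23 iron genes 12 were higher, a share above the 28.0% of all genes, with a median of 0.25. Another 6 were lower, a share near the 27.7% of all genes. The 6 lower became 3 without library 3 before or without library 2 after differentiation. SLC25A37, mitoferrin, imports iron into mitochondria, and it stood at 837, 903 and 749 CPM before and 3963, 4090.1 and 4448 CPM after differentiation (log2 fold change 2.33 ± 0.08, SE; adjusted p = 9.6e-13). TFRC, the transferrin receptor, was already among the most abundant messages at 7080.1, 5666 and 7070.0 CPM and reached 12095, 11767 and 11441 CPM, a 1.78-fold rise. Per length, TFRC went from rank 22 to rank 11 among nuclear protein-coding genes by mean TPM, a length-scaled level that sums to the same total in every library, SLC25A37 from rank 238 to rank 47 and ALAS2 from rank 233 to rank 52. The endosomal iron transporter SLC11A2 rose 2.03-fold and GLRX5, a glutaredoxin of iron-sulfur cluster assembly, 1.73-fold. ACO1, which encodes the iron-regulatory protein 1, fell from 80.3, 90.4 and 87.8 CPM to 42.3, 43.6 and 50.6 CPM. HFE, a regulator of iron sensing, had the lowest value of the list at -2.90 ± 0.37 on the log2 scale. The ferritin heavy chain gene FTH1 rose by 1.44 and the light chain gene FTL by 0.72 on the same scale.

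Most membrane and surface genes rose. In the red cell membrane skeleton list 13 of 16 genes rose and 1 fell, TPM3 (log2 fold change -0.29 ± 0.06), with a median of 0.74. SLC4A1, band 3, anchors the skeleton and exchanges anions, and it had the largest change of the list. It stood at 112, 131 and 96.3 CPM before and 881, 1001 and 1191 CPM after differentiation, 9.04-fold higher (log2 fold change 3.18 ± 0.13, SE; adjusted p = 4.1e-12). Beta-spectrin, SPTB, a structural protein of the skeleton, rose by 0.50 on the log2 scale. EPB42, protein 4.2, rose 2.54-fold and the tropomodulin gene TMOD1 3.26-fold, but 34.8% of the exon bases of EPB42 and 45% of those of TMOD1 overlap genes on the other strand, whose reads an unstranded count cannot separate.

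Among blood group carriers and surface proteins 18 of 22 rose and 1 fell, with a median of 1.10. FUT1, which makes the H antigen, went from 64.2, 64.1 and 54.6 CPM to 204, 205 and 229 CPM, a 3.48-fold rise, and the Kell antigen gene KEL rose 2.27-fold. CD47, the signal against uptake by macrophages, was the member that fell (log2 fold change -1.07 ± 0.09). Transporters and enzymes of the red cell followed, with 14 of 19 higher, 2 lower and a median of 1.16. SLC2A1, the glucose transporter GLUT1, went from 143, 155 and 127 CPM to 589, 576 and 655 CPM. BPGM, which makes the 2,3-bisphosphoglycerate that lowers oxygen affinity, went from 22.3, 22.9 and 19.4 CPM to 79.4, 82.5 and 83.4 CPM, and the calcium pump ATP2B4 rose 2.89-fold. The lactate carrier SLC16A1 and the aquaporin AQP3 were the 2 that fell, by 1.21 and 0.77 on the log2 scale.

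Most globin genes rose, while the 3 most abundant had positive changes that did not pass the test. The library kit removes globin RNA, so levels of HBA1, HBA2 and HBB are what depletion left. How far it also removed the other globin RNAs, among them HBG1, HBG2 and HBD, was not tested. Of 12 tested genes of the globin list 9 rose, and the other 3 did not pass the test. HBA2, an alpha-globin gene, stood at 4670.5, 1076 and 3582 CPM before and 11389, 3900.4 and 1806 CPM after differentiation, and the groups overlapped (log2 fold change 0.87 ± 0.66, SE; adjusted p = 0.28). HBB, beta-globin, stood at 624, 152 and 515 CPM before and 1855, 667 and 282 CPM after, which also overlapped (adjusted p = 0.15), and HBA1 had an adjusted p of 0.30. With a term for the replicate number HBB passed the test (adjusted p = 0.046). All 3 passed when no filter on low counts was applied (adjusted p = 1.8e-28 for HBA2, 1.2e-40 for HBB and 1.2e-20 for HBA1), with log2 fold changes of 0.82, 1.07 and 0.77. The replicates overlapped as before, so p-values this small do not measure the spread among them and were not read as a rise. The summed globin share of counts was 0.579, 0.143 and 0.458% in the 3 libraries before and 1.25, 0.460 and 0.220% in those after differentiation, so that library 2 was low before and library 1 was high after. HBA1 and HBA2 are near-identical copies and their split is uncertain. By mean TPM among nuclear protein-coding genes, HBA2 ranked 1 at both stages, at 4803 ± 2867 before and 6085 ± 5243 after (SD, n = 3).

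The less abundant genes of the list that were tested all passed the test as higher, where 28.0% of all genes did. None of them overlapped between the stages, and the share of all genes without overlap is not given here. HBD, the minor adult delta-globin, stood at 1.01, 0.718 and 0.271 CPM before and 4.45, 6.78 and 5.48 CPM after (log2 fold change 3.00 ± 0.38, SE; adjusted p = 3.8e-06). HBG2, fetal gamma-globin, stood at 6.06, 20.6 and 6.33 CPM before and 28.5, 61.4 and 68.9 CPM after, a 4.87-fold rise, while HBG1 went from 1.08, 1.08 and 0.633 CPM to 2.7, 3.77 and 4.78 CPM. Without library 2 before differentiation, the highest of its group, the log2 fold change of HBG2 was 3.09 in place of 2.28. HBG1 and HBG2 are near-identical, and 71.8% and 53% of their annotated exon bases overlap other genes. BGLT3, a noncoding transcript between the gamma-globin and delta-globin genes, rose 3.43-fold from 5.7, 6.02 and 5.88 CPM to 20, 18.6 and 21.9 CPM. HBM, the alpha-like mu-globin, rose 3.32-fold, HBQ1, theta-globin, 2.38-fold, embryonic HBZ 2.15-fold and the pseudogene HBBP1 2.48-fold, and 44.8% of the exon bases of HBM overlap other genes, among them HBZ. AHSP, the chaperone that holds free alpha-globin, went from 157, 167 and 154 CPM to 382, 403 and 417 CPM. Embryonic HBE1 had 1 count before and 3 after over the 3 libraries of each stage and was not tested.

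**Figure D2:**
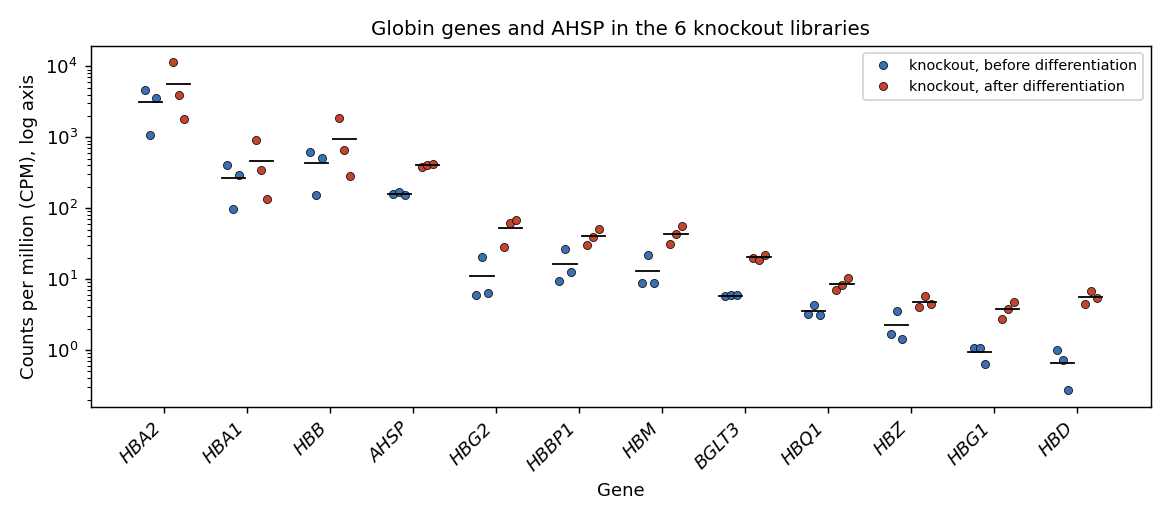
CPM on a log axis for 12 genes of the globin list in the 3 knockout libraries before (blue) and the 3 after (red) differentiation; horizontal lines are group means. HBA2, HBA1 and HBB overlap between the stages, while the other 9 genes do not.

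Erythroid transcription factors rose in 20 of 27 cases and fell in 4, with a median of 0.57. GATA1, the master regulator of the lineage, stood at 61.7, 84.1 and 65.4 CPM before and 102, 109.9 and 133 CPM after differentiation (log2 fold change 0.71 ± 0.14, SE; adjusted p = 3.2e-04). GATA2, which GATA1 replaces as cells mature, went the other way, from 32.3, 44.8 and 45.1 CPM to 9.5, 9.36 and 12 CPM, 3.98-fold lower. Neither gene overlapped between the stages. KLF1, an activator of adult globin and membrane genes, rose 1.55-fold, and TAL1, a partner of GATA1, rose 2.13-fold. NFE2, a factor of globin enhancers, rose 2.18-fold, and the repressor gene KLF3 1.93-fold. FOXO3, a regulator of late maturation and antioxidant genes, went from 127, 123 and 126 CPM to 426, 421 and 494 CPM, 3.57-fold higher. HEMGN, hemogen, a GATA1 target of the erythroid nucleus, rose 3.91-fold from 223, 161 and 161 CPM to 718, 726 and 687 CPM.

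Receptors and messengers of the growth factors in the medium moved apart. KIT, the stem cell factor receptor, fell from 655, 655 and 675 CPM to 359, 369 and 381 CPM (log2 fold change -0.84 ± 0.06, SE; adjusted p = 3.7e-09), while EPOR, the erythropoietin receptor, rose from 24.1, 39.1 and 25.5 CPM to 73.5, 75.6 and 94.1 CPM (log2 fold change 1.46 ± 0.15; adjusted p = 2.6e-07). In all, 16 of 30 genes of stem cell factor, erythropoietin and cytokine signaling rose and 7 fell, with a median of 0.59. JAK2, the kinase bound to EPOR, rose 2.71-fold, and SH2B3, an inhibitor of JAK2, rose 2.44-fold. ERFE, erythroferrone, the hormone by which erythroblasts lower hepcidin, rose 3.95-fold from 42.9, 41 and 27.7 CPM to 144, 137 and 163 CPM. SOCS3, a feedback inhibitor of cytokine receptors, had the largest rise of the list, 3.54 ± 0.41 on the log2 scale, and SPRY2, a brake on receptor kinase signaling, the largest fall, -1.57 ± 0.17.

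Promoter sequences are shown for 4 of the genes above, picked because they hold AGATAA, a form of the GATA motif, near their start: ALAS2, EPOR and HBD, which rose, and RHEX, which fell. AGATAA was not in the 250 bases before GATA1, KLF1, HEMGN, TFRC or FOXO3, which also rose. The variant TGATAA was not searched for, and KLF1 and HEMGN hold it there, read as TTATCA on the gene's strand. GPR85, which fell, held 2 matches to AGATAA and is not shown. Each is the 250 bases before the start of the gene in RefSeq (GRCh38.p14), written 5′ to 3′ on the strand of the gene. The RefSeq start of RHEX lies inside the gene as the counts define it, downstream of the start given above. Capitals mark matches on either strand to AGATAA, the form of the GATA factor motif searched for, or to CCNCNCCC, the motif of KLF factors. KLF matches may overlap each other.
ALAS2 (chrX:55030978-55031227, minus strand): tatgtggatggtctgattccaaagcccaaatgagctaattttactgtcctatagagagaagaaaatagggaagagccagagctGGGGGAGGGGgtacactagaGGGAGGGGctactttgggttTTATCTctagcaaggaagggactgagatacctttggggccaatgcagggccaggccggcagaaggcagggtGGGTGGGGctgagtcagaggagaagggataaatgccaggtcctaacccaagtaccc
EPOR (chr19:11384315-11384564, minus strand): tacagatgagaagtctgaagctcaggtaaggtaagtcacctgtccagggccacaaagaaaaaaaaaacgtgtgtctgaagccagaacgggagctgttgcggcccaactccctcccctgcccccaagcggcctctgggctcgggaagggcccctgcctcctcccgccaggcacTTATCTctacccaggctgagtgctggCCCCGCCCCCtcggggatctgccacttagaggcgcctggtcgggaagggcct
HBD (chr11:5234484-5234733, minus strand): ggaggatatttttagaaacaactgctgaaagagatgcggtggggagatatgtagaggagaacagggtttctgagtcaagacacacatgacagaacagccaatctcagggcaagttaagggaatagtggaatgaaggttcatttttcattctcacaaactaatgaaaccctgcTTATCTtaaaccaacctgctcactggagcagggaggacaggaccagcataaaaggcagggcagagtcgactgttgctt
RHEX (chr1:206083345-206083594, plus strand): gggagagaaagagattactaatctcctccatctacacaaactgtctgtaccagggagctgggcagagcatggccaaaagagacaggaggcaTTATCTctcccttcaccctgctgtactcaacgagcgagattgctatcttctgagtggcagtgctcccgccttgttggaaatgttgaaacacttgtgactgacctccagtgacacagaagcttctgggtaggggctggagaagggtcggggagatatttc
All 4 GATA matches shown read TTATCT on the gene's strand, which is the motif on the other strand. In windows of 300 bases, 250 before and 50 after the start, the GATA motif was present in 10.5% of all 27305 RefSeq promoters and in 4.8% of the 9290 that matched a tested protein-coding gene by symbol. The share was 6.81% of 734 matched promoters of genes at least 2-fold higher and 5.69% of 985 of genes at least 2-fold lower. The KLF motif was present in 55.1% of all promoters, 72.9% of tested genes, 74.5% of those higher and 76.3% of those lower. For the 10 largest rises named above 8 promoters were matched and 0 held the GATA motif, and for the 10 largest falls 7 were matched and 2 held it. These shares are descriptions of letters in these windows, and those for GATA count AGATAA only.

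Late erythroid maturation genes, which remodel the proteome and remove organelles, rose in 35 of 41 cases and fell in 2, with a median of 0.87. CPEB4, a translational repressor of terminal erythroid cells, stood at 69.4, 66.7 and 66.9 CPM before and 303, 297 and 307 CPM after differentiation (log2 fold change 2.16 ± 0.06, SE; adjusted p = 4.5e-14). TRIM10, an erythroid ubiquitin ligase family member, went from 59.5, 49.1 and 46.9 CPM to 236, 267 and 249.8 CPM. Genes of autophagy, by which erythroblasts clear mitochondria, were among the rises. ATG4A, a protease that processes ATG8 proteins, rose 3.73-fold, and WIPI1, which binds phosphoinositides on forming autophagosomes, 4.07-fold, with 28.1% of the exon bases of WIPI1 overlapping genes on the other strand. The autophagy kinase gene ULK1 rose by 2.06 ± 0.18 and MAP1LC3B, an ATG8 protein, by 1.42 ± 0.08 on the log2 scale. BNIP3L, a mitophagy receptor of reticulocytes, was among those that fell (-0.96 ± 0.08).

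Progenitor genes fell in 9 of 16 tested cases and rose in 3, with a median of -0.45; the list held 25 genes, of which the other 9 had too few counts. CSF2RB, the common beta receptor chain of GM-CSF and IL-3, went from 47.6, 57.3 and 55.7 CPM to 7.62, 8.07 and 10.4 CPM, 6.2-fold lower. FLT3, a receptor of early progenitors, went from 9.6, 9.16 and 8.69 CPM to 0.469, 0.538 and 0.844 CPM. MYB, which holds erythroid progenitors in cycle, fell from 326, 287 and 307 CPM to 257, 256 and 264 CPM, a small fall with no overlap (log2 fold change -0.24 ± 0.06, SE; adjusted p = 0.0029). HLF, a stem cell transcription factor, was 1 of the 3 that rose (2.49 ± 0.39).

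Markers of other cell types were counted from lists of their defining genes, many of which had too few counts to be tested. Of 18 mast cell and basophil markers 10 were tested, and 9 of these fell and 1 rose, with a median of -1.37. The 1 that rose had a log2 fold change of 1.36. CPA3, mast cell carboxypeptidase, had 7.29, 5.48 and 6.33 CPM before, and after differentiation it had 1 count in all 3 libraries against 232 before. The ratio of these counts, scaled for depth, was 0.00623 with a 95% counting interval of 0.000157 to 0.0351. The tryptase gene TPSB2 fell 3.01-fold, though it is a near copy of TPSAB1, and the surface lectin gene SIGLEC6 fell 3.99-fold. The summed level of the mast cell list was 766 to 789 CPM before and 415 to 439 CPM after, of which KIT was most, and MRGPRX2 and CLC were at 0 in all 6 libraries.

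Of 25 neutrophil and monocyte markers 10 were tested, and 7 fell and 3 rose, with a median of -2.10. LYZ, lysozyme, went from 9.46, 8.98 and 10.2 CPM to 1.17, 0.538 and 0.844 CPM, and CEBPE, a granulocyte transcription factor, from 5.49, 5.3 and 4.52 CPM to 0.117, 0.323 and 0.281 CPM. CEBPA and SPI1, myeloid transcription factors, fell 5.18-fold and 4.17-fold. The largest of the 3 rises was 2.01 on the log2 scale. The summed level of the list was 64.8 to 68.3 CPM before and 47.2 to 50.2 CPM after, with CTSG, S100A8, S100A9 and S100A12 at 0 throughout. Overlapping genes on the other strand cover 34.0% of the exon bases of LYZ and 43.4% of those of CEBPA.

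For megakaryocytes 6 of 20 markers were tested, and 2 rose and 2 fell. One of the falls, RAB27B, lost its call without library 3 before (adjusted p = 0.056) or library 2 after differentiation (adjusted p = 0.072). ITGA2B, the platelet integrin chain CD41, fell from 35.6, 56.3 and 37.3 CPM to 10.4, 10.7 and 9.56 CPM, while LTBP1 rose 5.75-fold, and PF4, PPBP and GP1BB were at 0. The summed level was 51.2 to 75.2 CPM before and 72.6 to 77.9 CPM after. Lymphoid markers were summed at 3.83 to 5.21 CPM before and 2.69 to 3.99 CPM after; 2 of 25 were tested and 1 fell, CD247 (log2 fold change -2.79 ± 0.48), with CD3E, CD3G, CD8B, CD79B and JCHAIN at 0. Of 24 stromal and endothelial markers 4 were tested, 2 of them higher and 1 lower. FBN1, fibrillin 1, made most of their sum before differentiation and fell from 82.9, 80.1 and 89.8 CPM to 17.1, 14.8 and 14.5 CPM, while COL1A2, CDH5 and VCAM1 were at 0. The call of FN1, fibronectin, in this list was lost under 6 alternatives. The part of other cell types in the results was not tested.

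**Figure D3:**
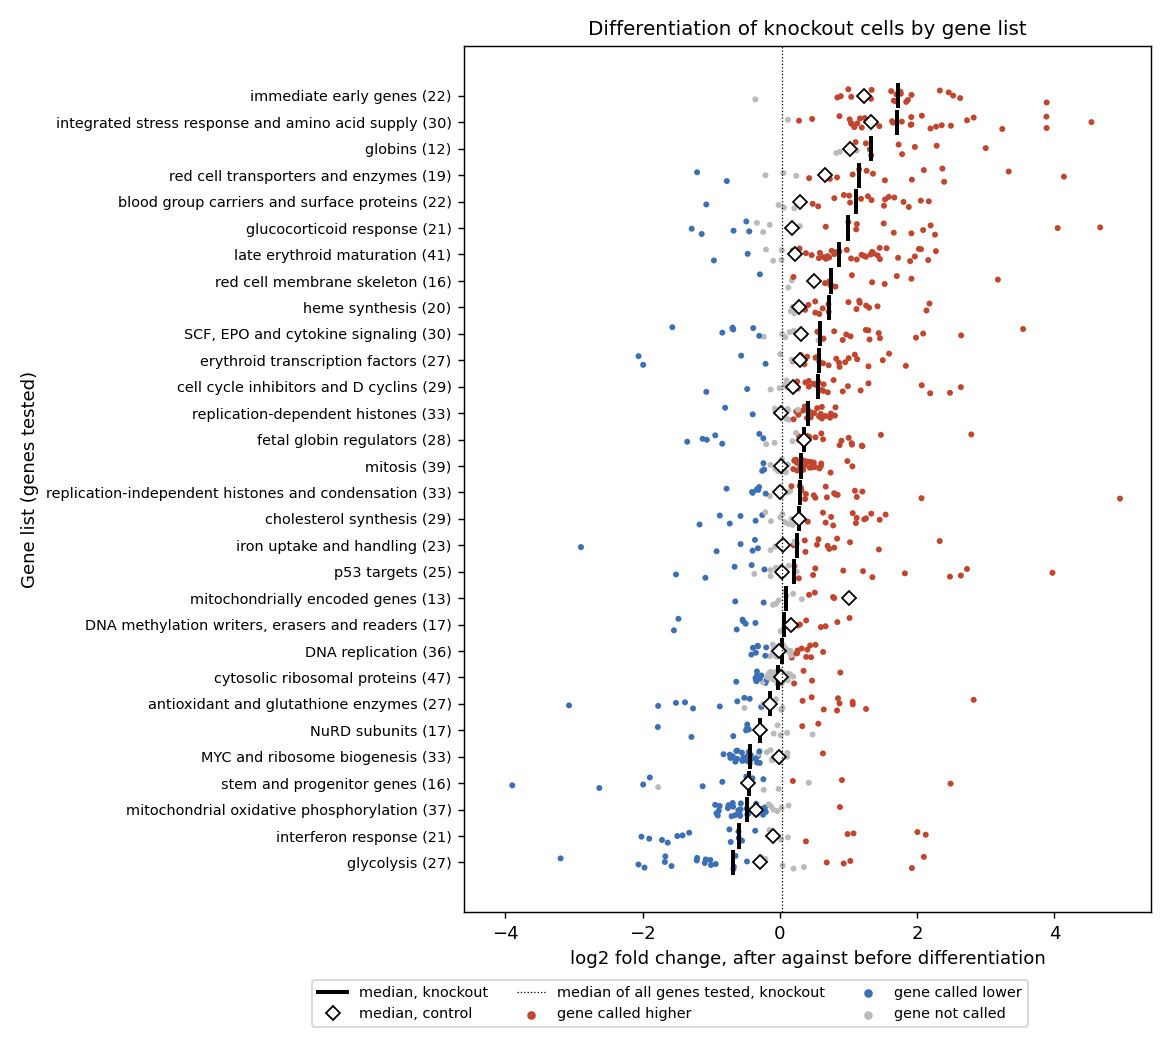
Log2 fold change after against before differentiation for each tested gene of 30 gene lists in knockout cells (points; red called higher, blue called lower, grey not called), with the median in knockout (bar) and control cells (diamond). Medians run from 1.72 for immediate early genes to -0.68 for glycolysis, and the dotted line marks the median of all genes, 0.03.

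Most genes of glycolysis and oxidative phosphorylation fell. Of 27 glycolysis genes 17 fell and 5 rose, with a median of -0.68. PKM, pyruvate kinase of growing cells, stood at 38.8, 41 and 52.3 CPM before and 4.34, 4.73 and 5.34 CPM after differentiation, 9.17-fold lower (log2 fold change -3.20 ± 0.14, SE; adjusted p = 1.2e-11). ENO1, enolase, went from 928, 1014 and 948 CPM to 244, 237 and 255 CPM, and LDHA, lactate dehydrogenase A, from 622, 703 and 727 CPM to 169, 162 and 160.1 CPM. PKLR, the red cell form of pyruvate kinase, had a log2 fold change of -0.21 ± 0.09 and did not pass the test. Those that rose were SLC2A1 and BPGM, described above, together with PFKM, PDK1 and PFKFB3. Nuclear genes of oxidative phosphorylation fell in 30 of 37 cases and rose in 1, with a median of -0.48. SDHB, a subunit of succinate dehydrogenase, went from 117, 115 and 120.2 CPM to 64, 65.1 and 62.6 CPM. TFAM, which packs and transcribes mitochondrial DNA, fell 1.92-fold, and the ATP synthase genes ATP5F1C and ATP5F1A 1.87-fold and 1.63-fold.

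The mitochondrial genome holds 13 protein-coding genes. Of these 4 rose and 2 fell in knockout cells, against 28.0% and 27.7% of all genes. Their median was 0.09, which turned to -0.09 with library size alone. Leaving out 1 knockout library at a time moved this median from -0.01, without library 2 after differentiation, to 0.28, without library 2 before it, and the falls to 1 or 2. It was 0.01 without library 1 before, 0.02 without library 3 before, 0.17 without library 1 after and 0.16 without library 3 after differentiation. MT-ND1 stood at 122, 145 and 106 CPM before and 209.6, 227 and 210.2 CPM after differentiation (log2 fold change 0.79 ± 0.14, SE; adjusted p = 1.4e-04), and MT-ND2 rose 1.71-fold. Both encode subunits of complex I. MT-CO2, a subunit of complex IV, went down from 960.0, 1404 and 1063 CPM to 647, 707 and 828 CPM (log2 fold change -0.65 ± 0.15). In control cells 11 of the 13 rose, with a median of 1.01, and the difference between the responses passed the test as lower in knockout for 11 of 13 (background 6.68% of genes). For MT-ND1 the difference, knockout minus control, was -0.85 ± 0.20 on the log2 scale (adjusted p = 0.0086).

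**Figure D4:**
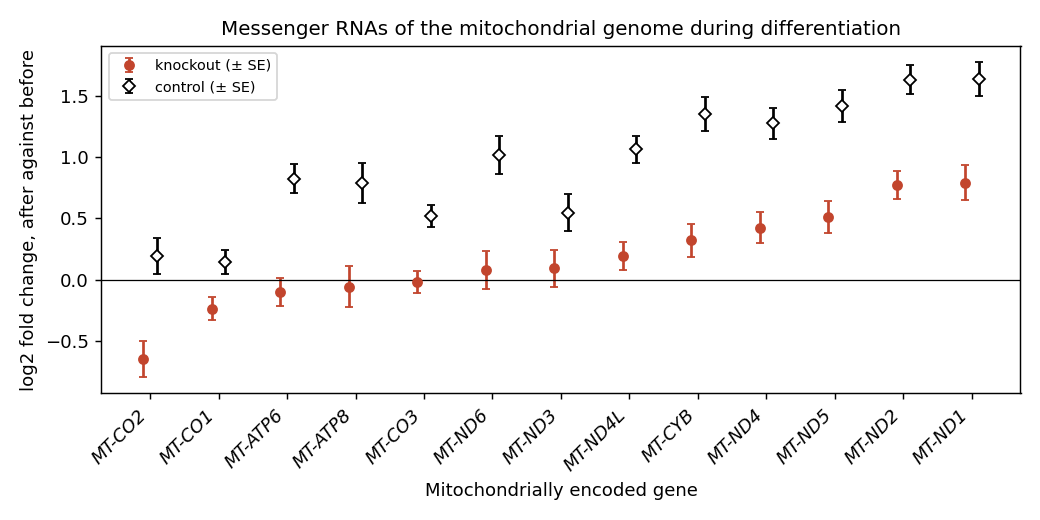
Log2 fold change after against before differentiation, with its standard error, for 13 mitochondrially encoded messenger RNAs in knockout (red circles) and control cells (open diamonds). Every knockout value lies below the control value of the same gene, from -0.65 against 0.19 for MT-CO2 to 0.79 against 1.64 for MT-ND1.

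Genes of ribosome biogenesis mostly fell. Of 33 MYC and ribosome biogenesis genes 23 fell and 1 rose, with a median of -0.43. NOP56, a core protein of box C/D small nucleolar RNPs, went from 351, 368 and 408 CPM to 230.0, 233 and 237 CPM. The RNA polymerase I subunit genes POLR1B and POLR1C fell 1.66-fold and 1.77-fold, with 17.4% of the exon bases of POLR1C shared with genes on the other strand. RCL1, an enzyme of 18S rRNA processing, was the gene that rose, from 58.7, 60.7 and 62.6 CPM to 93.3, 93.6 and 93.9 CPM. MYC itself stood at 187, 246 and 199 CPM before and 179.7, 191 and 214 CPM after, with overlap (log2 fold change -0.11 ± 0.09; adjusted p = 0.32). Cytosolic ribosomal protein genes had 4 rises and 10 falls among 47, shares below the 28.0% and 27.7% of all genes, with a median of -0.02. With library size alone these counts became 2 and 24, and the 10 falls became 6 without library 1 before or library 3 after differentiation. RPL23 had the smallest adjusted p of the falls, going from 786, 668 and 721 CPM to 481, 476 and 441 CPM.

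Mitosis genes rose in 27 of 39 cases and fell in 3, with a median of 0.30, and with library size alone 15 rose and 5 fell. PRC1, which bundles the central spindle, went from 129, 114 and 116 CPM to 232, 227 and 253 CPM (log2 fold change 0.98 ± 0.06, SE; adjusted p = 1.5e-09). ANLN, anillin of the cleavage furrow, rose 1.67-fold, ESPL1, separase, 2.08-fold and the chromokinesin gene KIF4A 1.52-fold. Replication-dependent histone genes rose in 23 of 33 cases and fell in 2, with a median of 0.40, and with library size alone 17 rose and 5 fell. HIST1H2AG went from 585, 511 and 475 CPM to 897, 841 and 869 CPM and HIST1H2BK from 614, 565 and 506 CPM to 972, 893 and 956 CPM. Histone genes are close copies of each other, so the split of reads between them is uncertain. Of 36 DNA replication genes 11 were higher and 7 lower, shares close to or below the 28.0% and 27.7% of all genes, and their median of 0.03 was that of all genes. With library size alone 4 were higher and 17 lower, and the median turned to -0.16. Without library 3 before or library 3 after differentiation the 11 became 7. MCM5, a subunit of the replicative helicase, went from 157, 189.7 and 156 CPM to 236, 259.8 and 282 CPM, and RRM2, of ribonucleotide reductase, from 155, 163 and 172 CPM to 213, 233 and 218 CPM. By mean TPM, which has no TMM scaling, MCM5 stood at 29.6 before and 33.1 after, and RRM2 at 43.1 and 41.8.

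Inhibitors of the cycle and D cyclins rose in 22 of 29 cases and fell in 2, with a median of 0.56. CDKN2B, the inhibitor p15, went from 25.6, 23.1 and 24.2 CPM to 106, 97.9 and 102 CPM (log2 fold change 2.07 ± 0.07, SE; adjusted p = 9.1e-13). CDKN1B, the inhibitor p27, rose 1.34-fold from 76, 64.5 and 68.2 CPM to 96.4, 93.7 and 89.7 CPM. By mean TPM, without TMM scaling, CDKN1B stood at 32.3 before and 31.0 after. The antiproliferative genes BTG1 and BTG2 rose 4.56-fold and 5.57-fold. CCNE1, cyclin E1, which promotes entry into S phase, also rose, 2.26-fold. Replication-independent histones and genes of chromatin condensation rose in 18 of 33 cases and fell in 8, with a median of 0.29. Besides H1F0, the linker histone gene H1FX rose 4.18-fold, from 6.06, 9.61 and 5.7 CPM to 25.1, 29.4 and 34.7 CPM, with 24.0% of its exon bases shared with other genes, and the histone variant gene H2AFV 1.61-fold.

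Of 30 genes of the integrated stress response and amino acid supply 29 rose and SHMT2 did not pass the test, with a median of 1.71. TRIB3, a pseudokinase induced by ATF4 and DDIT3, stood at 10.7, 8.98 and 6.42 CPM before and 107, 123 and 160.0 CPM after differentiation (log2 fold change 3.88 ± 0.16, SE; adjusted p = 6.5e-12). ATF4, the central factor of the response, rose by 1.19 ± 0.09 and EIF2AK1, the heme-regulated eIF2-alpha kinase of erythroid cells, by 1.04 ± 0.08 on the log2 scale. CEBPB, a transcription factor of the response, went from 17, 15.2 and 12.2 CPM to 71, 68.4 and 76.6 CPM. SLC7A11, the cystine importer, went from 107, 54.5 and 52.7 CPM to 562, 509 and 455 CPM, with library 1 before differentiation standing above the other 2 of its group. Immediate early genes, which answer to growth factor and stress signals within minutes, rose in 21 of 22 cases, with a median of 1.72. KLF10 went from 9.53, 9.16 and 10 CPM to 52.8, 52.1 and 53.3 CPM and IER5 from 31.3, 28.6 and 23.6 CPM to 109, 98.2 and 109 CPM.

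Of 25 p53 targets 12 rose and 5 fell, with a median of 0.21; with library size alone 9 rose and 8 fell, with a median of 0.03. GADD45A, a DNA damage and stress protein, rose 3.53-fold and the sestrin gene SESN2 6.62-fold. Antioxidant and glutathione enzymes were divided, 10 higher and 12 lower of 27. CAT, catalase, went from 344, 318 and 307 CPM to 576, 587 and 561 CPM, while the glutathione transferase gene GSTM3 fell 8.42-fold, from 249, 241 and 245 CPM to 27.8, 28.7 and 30.9 CPM. PRDX1, a peroxiredoxin, fell 2.61-fold, and 24.9% of its exon bases overlap a gene on the other strand. PRDX2, the main peroxiredoxin of red cells, rose by 1.06 ± 0.09 on the log2 scale.

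Dexamethasone, a glucocorticoid, was listed for the medium before differentiation and not for the one after. Of 21 genes of the glucocorticoid response 12 rose and 5 fell, with a median of 1.00. SGK1, a serum and glucocorticoid-induced kinase, went from 36.2, 27.4 and 29.4 CPM to 145, 138 and 146 CPM, and TXNIP, an inhibitor of glucose uptake, from 405, 337 and 311 CPM to 989, 1014 and 999.6 CPM. FKBP5, a receptor cochaperone and standard readout of glucocorticoid action, was among those that fell (-0.45 ± 0.08). The list's largest rises were of the metallothionein genes MT2A (4.67 ± 0.40) and MT1X (4.05 ± 0.31), which also answer to zinc and are close copies of other family members.

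Interferon response genes fell in 13 of 21 cases and rose in 5, with a median of -0.60. BST2, tetherin, went from 52.6, 60.7 and 52.4 CPM to 16.3, 18.9 and 18 CPM, and IFIT1, a sensor of viral RNA, fell 3.74-fold. IRF1 and ISG20 were among the 5 that rose, 4.36-fold and 4.01-fold. Cholesterol synthesis genes rose in 15 of 29 cases and fell in 6, with a median of 0.28. INSIG1, which retains the SREBP activator in the endoplasmic reticulum, went from 112, 131 and 141 CPM to 352, 359 and 337 CPM. SCD, a fatty acid desaturase, rose 2.91-fold and the sterol demethylation gene MSMO1 2.38-fold.

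Genes that act with MBD2 were measured in the same cells. Of 17 NuRD subunits 9 fell and 2 rose, with a median of -0.30. MTA3 went from 14, 10.6 and 10.7 CPM to 3.52, 3.98 and 2.67 CPM and the accessory subunit gene CDK2AP1 from 20.6, 21.9 and 20 CPM to 7.85, 7.64 and 10.3 CPM. CHD3, a remodeling ATPase of the complex, fell 1.6-fold, and ZMYND8, a reader that joins NuRD, rose 1.47-fold. Writers, erasers and readers of DNA methylation rose in 7 of 17 cases and fell in 7, with a median of 0.06 that was -0.12 with library size alone. DNMT3A, a de novo methyltransferase, went from 21.5, 30.4 and 22.2 CPM to 7.03, 9.15 and 9.14 CPM, while TET3, which oxidizes methylcytosine, rose 1.79-fold. The methyl-CpG reader genes ZBTB4 and ZBTB38 moved apart, the first 2.02-fold higher and the other 2.79-fold lower.

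Regulators of fetal globin rose in 16 of 28 cases and fell in 7, with a median of 0.36. SOX6, a repressor of gamma-globin that acts with BCL11A, stood at 18.4, 14.9 and 14.8 CPM before and 117, 106 and 111 CPM after differentiation (log2 fold change 2.79 ± 0.10, SE; adjusted p = 8.6e-13). BCL11A, the main repressor, went from 23, 19.5 and 21.8 CPM to 46.4, 44.2 and 42.7 CPM, and ZBTB7A, which represses gamma-globin separately, rose 1.52-fold. KDM1A, the histone demethylase LSD1, fell 2.09-fold, whereas its partner RCOR1 rose 2.77-fold. LIN28B, an RNA-binding protein of fetal cells, fell by 1.13 and HMGA2, one of its downstream genes, fell by 1.35 on the log2 scale.

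The knockout response was then set against the response of control cells, which shares no library with it. Control cells had 3697 rises (21.5% of genes tested) and 3832 falls (22.3%). Of the 4807 genes that rose in knockout cells, 2921 also rose in control cells, 1815 were not called there and 71 fell. Of the 4756 that fell, 3106 also fell in control cells, 1603 were not called and 47 rose. Absence of a call in 1 genotype does not show a difference, so the difference of the responses was tested for every gene. It was above 0 for 1079 genes (6.28%) and below 0 for 1148 (6.68%); with library size alone these counts were 644 and 2146. Among the 4807 rises, 3853 did not pass this test, 912 were further up in knockout and 42 were further up in control cells. Among the 4756 falls, 3716 did not pass, 1000 were further down in knockout and 40 were further down in control cells. The median of the rises was 0.80 in knockout and 0.47 in control cells, and that of the falls was -0.70 and -0.40, but these genes were chosen by the knockout values.

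**Figure D5:**
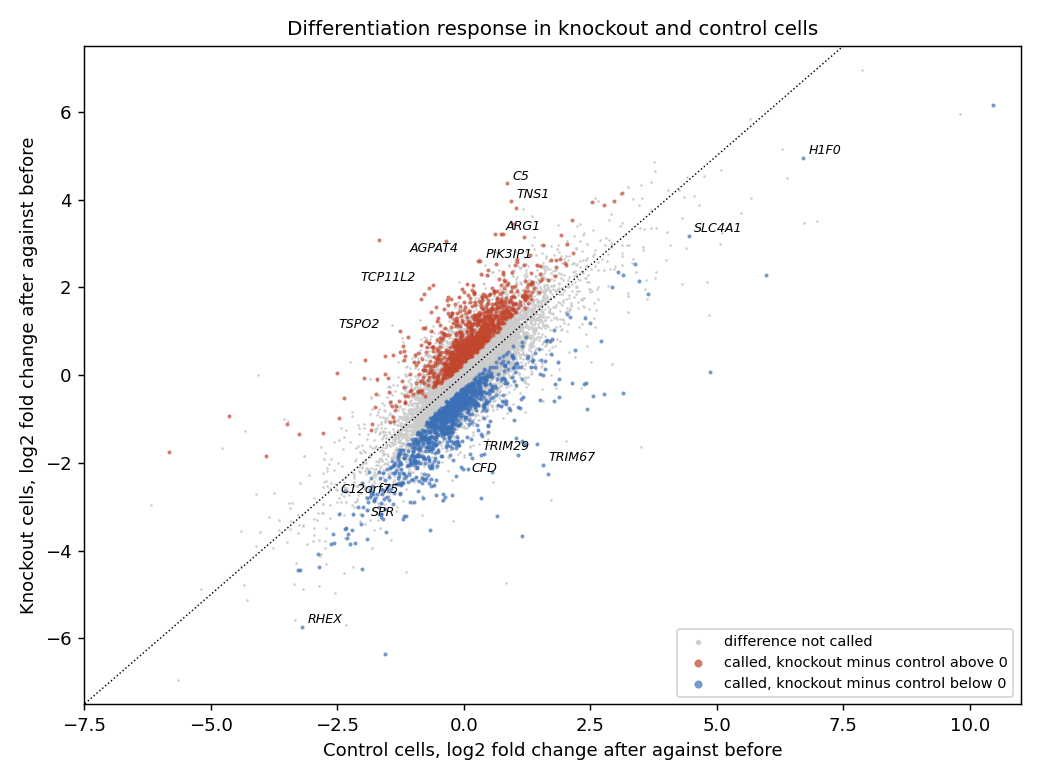
Log2 fold change after against before differentiation in control cells (horizontal) and knockout cells (vertical) for 17175 genes; the dotted line marks equal responses. Genes whose difference passed the test are red above the line (1079) and blue below it (1148), and TRIM67 at -2.04 in knockout and 1.57 in control cells is among those with opposite responses.

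Besides the mitochondrial genome, several erythroid and cell cycle lists held many genes that responded differently. In heme synthesis the difference was above 0 for 12 of 20 genes, against a background of 6.28%. ALAS2 rose by 2.13 ± 0.07 in knockout and 0.82 ± 0.07 in control cells, a difference of 1.32 ± 0.09 (adjusted p = 3.1e-07). In late erythroid maturation it was above 0 for 23 of 41 and below 0 for TRIM10 only. FOXO3 had a difference of 1.41 ± 0.11 and CPEB4 of 1.37 ± 0.08. Blood group carriers had 13 of 22 above 0, among them RHCE and RHD, the genes of the Rh antigens, which are close copies. Control cells changed RHCE by 0.12 and knockout cells by 1.67 on the log2 scale. Mitosis genes had 15 of 39 above 0, cell cycle inhibitors and D cyclins 13 of 29 and replication-dependent histones 19 of 33. In the other direction MYC and ribosome biogenesis genes had 13 of 33 below 0 and glycolysis genes 13 of 27, with 2 above 0. With library size alone the counts above 0 were 11, 20, 11, 3, 8 and 9 for heme synthesis, late maturation, blood group carriers, mitosis, cycle inhibitors and histones, and the mitosis count was 8 when library 1 or 2 after differentiation of knockout cells, or library 2 of control cells at either stage, was left out. Counts below 0 were 21 for ribosome biogenesis and 16 for glycolysis, and the first was 7 without knockout library 1 after differentiation and 8 without knockout library 2 after, knockout library 3 before or control library 1 before it. Some of the genes with large rises rose less in knockout than in control cells. SLC4A1 rose by 3.18 ± 0.13 in knockout and 4.45 ± 0.19 in control cells (adjusted p of the difference = 0.0021), and H1F0 by 4.96 ± 0.11 and 6.70 ± 0.19 (adjusted p of the difference = 0.0014). In the control libraries SLC4A1 started at 1.5, 2.64 and 2.76 CPM and reached 54.2, 51.4 and 47.5 CPM, so knockout cells began higher, while H1F0 started at 0.657, 0.406 and 0.286 CPM and reached 41.8, 53.7 and 46.5 CPM.

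Among protein-coding genes that were called in knockout cells, with a mean of at least 2 on the log2 CPM scale over all 12 libraries, the 6 in each direction with the largest called differences were followed by library. TNS1 stood at 3.32, 2.96 and 3.44 CPM before and 44.8, 48.1 and 59.8 CPM after in knockout cells, and at 3.1, 2.23 and 2.67 CPM before and 6.0, 4.94 and 4.0 CPM after in control cells. ARG1, arginase 1, which red cells carry, went from 5.7, 5.03 and 5.88 CPM to 52, 51 and 51.6 CPM in knockout and from 1.5, 1.9 and 1.81 CPM to 3.56, 2.33 and 2.95 CPM in control cells. TCP11L2 rose in knockout cells, from 15.1, 13.8 and 11.9 CPM to 52.9, 54.1 and 63.1 CPM, and fell in control cells, from 10.8, 9.95 and 10.7 CPM to 7.22, 6.69 and 6.53 CPM. TSPO2, an erythroid membrane protein of the translocator family, also rose in knockout (1.00 ± 0.15) and fell in control cells (-1.26 ± 0.21). The acyltransferase gene AGPAT4 rose 6.1-fold in knockout cells, and PIK3IP1, an inhibitor of PI3 kinase, 6.01-fold; neither passed the test in control cells (adjusted p = 0.090 and 0.32).

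TRIM67 had the most negative difference of these. It fell from 8.52, 8.35 and 7.42 CPM to 2.34, 1.61 and 1.97 CPM in knockout cells and rose from 3.94, 3.72 and 3.43 CPM to 11.5, 11.7 and 9.68 CPM in control cells, so that the knockout cells began above the control cells. TRIM29, of the same tripartite motif family, fell from 23.5, 35.6 and 24.3 CPM to 5.39, 8.5 and 8.72 CPM in knockout cells and stood at 25, 28.4 and 30.6 CPM and 30.1, 30.4 and 33.4 CPM in control cells. CFD, complement factor D, fell 4.27-fold in knockout cells and had a log2 fold change of -0.06 ± 0.23 in control cells (adjusted p = 0.87). RHEX fell in both, with log2 fold changes of -5.73 in knockout and -3.19 in control cells. SPR, sepiapterin reductase, and C12orf75 likewise fell in both, with -2.89 and -1.06 for SPR and -2.53 and -0.65 for C12orf75.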

How the data were processed

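Total RNA (mirVana, DNase I) was made into TruSeq Stranded libraries with ribosomal and globin RNA removed, per the labels' protocols. The submitters' processing notes name Trimmomatic, FastQC, Subread 1.6.2, featureCounts 1.2.6 and edgeR 3.18.1. The deposited values are raw counts per gene, made by the authors with featureCounts v1.4.6-p4 over exons of GENCODE 22 (hg38), paired-end and with no strand option, per the file headers. Symbols came from GENCODE 29 by gene identifier (56753 of 60483 matched). Counts were fitted with edgeR 4.0.16 in R 4.3.3: TMM scaling, filterByExpr, 1 mean for each of the 4 groups over all 12 libraries, quasi-likelihood tests of after minus before in each genotype and of their difference, and Benjamini-Hochberg adjustment over 17175 genes at 0.05. The common biological coefficient of variation was 0.089. The fit was tested on simulated counts. No pair of knockout replicates agreed within sampling noise.

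Named genes were fixed genes, up to 4 called members with the smallest adjusted p from each of 35 lists, and the genes with the largest changes or differences; further list members named beside these were chosen after their values were seen. Some genes that the rule names are not reported here. The members and lists were chosen with earlier results of these data known. Alternatives were DESeq2 1.42.0, other scalings and filters, a replicate term, fewer libraries, and each library left out.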

Additional observations from a re-analysis of the deposited data

Results flagged for a closer look

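The response to differentiation differed between knockout and control cells, by a test of the difference itself, for 1079 genes above 0 and 1148 below 0. Among the protein-coding genes above the level threshold given in the report and called in knockout cells, these were the largest differences, knockout minus control on the log2 scale. TNS1 stood at 3.04, TCP11L2 at 2.67, ARG1 at 2.49, AGPAT4 at 2.32, PIK3IP1 at 2.27 and TSPO2 at 2.26. TRIM67 stood at -3.61, RHEX at -2.54, TRIM29 at -2.04, CFD at -2.04, C12orf75 at -1.88 and SPR at -1.83. The adjusted p-values of these 12 differences ran from 6.3e-08 for TCP11L2 to 0.0013 for SPR. TCP11L2, TSPO2 and TRIM67 changed in opposite directions in the 2 genotypes, and over all genes 71 rose in knockout and fell in control cells while 47 did the reverse.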

How the results depend on the processing

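Requiring at least a 2-fold change left 1787 rises and 1548 falls in knockout cells. With library size alone in place of TMM the difference between the genotypes was above 0 for 644 genes and below 0 for 2146, and the knockout counts were 3427 and 6337. Under all other alternatives these counts stayed within 1.5 times of those reported. Leaving out each library in turn gave 4363 to 5023 rises and 4329 to 4810 falls in knockout cells, and 817 to 1230 and 809 to 1145 differences above and below 0. DESeq2 called 4254 rises and 4520 falls. After the group mean was taken from each gene's log2 CPM, same-numbered knockout libraries correlated at 0.107, -0.018 and -0.018. Differently numbered libraries before and after ran from -0.198 to 0.182, so the numbers were not taken as pairs. With a replicate block there were 5043 rises and 4949 falls, with differences above 0 for 1344 genes and below 0 for 1384. HBB passed the test there (adjusted p = 0.046). Of 3622 values of named genes under the alternatives, 3609 kept direction and side of the threshold, 13 crossed the threshold and none reversed. HBA1, HBA2 and HBB passed without a filter on low counts, although their groups overlapped, and MYC passed with library size alone (adjusted p = 0.023). RAB27B lost its call without library 3 before (adjusted p = 0.056) or library 2 after differentiation (0.072), and FN1 lost its call under 6 alternatives (adjusted p of 0.055 to 0.17). With no filter on low counts DNA replication had 7 rises and 7 falls. CD247 ranged from -3.73 without library 1 after to -2.15 without library 2 after differentiation. The cause was not tested. Each group has 3 libraries, and counts near 1 CPM carry the most counting error.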

Other observations

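Noncoding RNA genes leaned upward during differentiation of knockout cells. Of 580 long intergenic noncoding genes tested 235 rose (40.5%) and 67 fell (11.6%), with a median log2 fold change of 0.50. Of 963 antisense genes 342 rose (35.5%) and 68 fell (7.06%), with a median of 0.45. Of 127 small nucleolar RNA genes 51 rose (40.2%) and 1 fell (0.787%), with a median of 0.60. Over all genes tested 28.0% rose and 27.7% fell. Protein-coding genes had 3329 rises (28.6%) and 4065 falls (34.9%) among 11652, with a median of -0.05. In control cells the medians were 0.32 for long intergenic, 0.26 for antisense and 0.40 for small nucleolar RNA genes. The counts were made without strand, so reads of an antisense gene and its partner cannot be told apart where they overlap.

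AL109615.3 stood at 1.23, 0.718 and 0.995 CPM before and 16.8, 14 and 15.9 CPM after differentiation, 15.4-fold higher, and AC104071.1 rose 7.08-fold. SLC7A11-AS1, antisense to the cystine importer gene, rose 5.3-fold, with 17% of its exon bases shared with other genes, among them SLC7A11. LINC01215 fell from 45.2, 54.3 and 58.4 CPM to 1.76, 2.48 and 3.09 CPM, AL034397.3 fell 8.24-fold and AL445524.1 3.68-fold. The mitochondrial ribosomal RNA genes MT-RNR1 and MT-RNR2 rose in knockout cells, by 1.18 ± 0.46 and 1.46 ± 0.44 on the log2 scale (adjusted p = 0.039 and 0.0097), with wide spread between replicates. Ribosomal RNA was removed when the libraries were made, so these are levels after depletion. The part of depletion in these rises was not tested.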
